A study of Mus musculus with 20 samples.

Results

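The 10 genes described here encode subunits of the nucleosome remodelling and deacetylase (NuRD) complex and the class I histone deacetylases that act in it or beside it: Mta1, Mta2, Mta3, Hdac1, Hdac2, Hdac3, Chd4, Mbd3, Gatad2a and Rbbp4. They were picked by gene symbol out of 34937 Ensembl genes, and they were chosen with their measured values in the comparison of maternal genotypes already known, so that comparison is given for them as a description without a test. RNA was sequenced from single mouse embryos at the 8-cell (8C) stage, E2.5, on a mixed background. The question of the study was how maternally inherited G9a, the H3K9 dimethyltransferase encoded by Ehmt2, affects expression after fertilisation. Control embryos (Ehmt2Cntr, n = 9 with counts of 10 labelled) came from Ehmt2F/+ mothers and maternally depleted embryos (Ehmt2Mat, n = 10) from Ehmt2F/- mothers, with F the conditional allele. All mothers carried Zp3-Cre, a transgene active in the growing oocyte, so that recombination took place in the germ line of both groups. The zygotic genotype of the controls was +/+ in 6 embryos and +/- in 3, and that of the Ehmt2Mat embryos was +/- in 5 and -/- in 5 (Ehmt2M/Z). The maternal groups thus also differ in the zygotic copies of Ehmt2, and only +/- embryos occur in both.

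NuRD joins nucleosome remodelling by a CHD helicase with histone deacetylation by HDAC1 and HDAC2. MTA proteins form the scaffold that holds the deacetylases and the histone-binding RBBP proteins, and MBD3 or MBD2 together with a GATAD2 protein connects this core to the remodeller. In early mouse embryos and pluripotent cells the complex is known for tuning the expression of developmental genes, and MBD3-containing NuRD for its part in lineage commitment.

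Total counts per embryo ranged from 12985149 to 30053248 in Ehmt2Cntr and from 8231646 to 30602434 in Ehmt2Mat, so that 3 counts in an embryo were worth 0.098 to 0.364 CPM. CPM are counts relative to the library total, here on library sizes scaled by the trimmed mean of M-values (TMM), and fold changes are log2 differences with their standard error (SE) from edgeR. Mitochondrial genes took 6.47 to 20.36% of the counts in controls and 8.03 to 21.73% in Ehmt2Mat embryos. Of 12 cumulus and granulosa cell markers, 10 had a median under 1 CPM, 5 of these were at 0 in every embryo, and the exceptions were Nr5a2 (220.1 to 887.9 CPM over all embryos) and Amhr2 (22.4 to 164.3 CPM). Inha reached 38.2 CPM in 1 Ehmt2Mat embryo. The summed level of that list was 321.8 to 910.3 CPM in controls and 291.0 to 580.4 CPM in Ehmt2Mat. Most of that sum was Nr5a2, at 260.1 to 887.9 CPM in controls and 220.1 to 518.1 CPM in Ehmt2Mat. All 8 preimplantation markers were detected, with Tfap2c and Tead4 higher and Klf5 lower in Ehmt2Mat (edgeR, adjusted p = 0.0183, 0.0046 and 0.000486). Of 7 oocyte transcripts tested, Oosp1 was higher (edgeR, adjusted p = 0.00277). No other tested gene of these 2 lists had an adjusted p under 0.05. The shares past it were 37.5% and 14.3%, against 9.35% of all tested genes. Both lists were set with earlier results of these data known, so these shares are descriptions. Each library is a whole embryo, so fewer cells of a type and less RNA per cell cannot be told apart. The labels do not say which embryos were littermates, and p-values measure the spread between these embryos. Embryo Ehmt2Cntr 2 had the lowest control level of Mta1, Mta3, Hdac1, Gatad2a and Rbbp4, and Ehmt2Cntr 7 had the highest of Mta3, Hdac2, Hdac3 and Rbbp4 together with the lowest of Mta2. Ehmt2 itself had 66.6 to 253.2 CPM in controls (median 133) and 58.7 to 159.1 CPM in Ehmt2Mat (median 94.9), a log2 fold change of −0.47 ± 0.24 that did not pass the test (adjusted p = 0.233). These gene counts run over all exons and do not isolate the deleted part, so they do not check the deletion.

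All 10 genes passed the filter on low counts. Divided by exon length, the median level in controls ran from Mta3 (128.8 CPM per kb) and Mbd3 (102 CPM per kb) over Hdac1 (51.8), Chd4 (27.3), Gatad2a (26.7), Hdac2 (19), Mta2 (15.9), Hdac3 (7.48) and Rbbp4 (6.06) to Mta1 (1.69 CPM per kb). The ranges of each pair of neighbours in that order overlapped among the 9 controls. In Ehmt2Mat the order of median levels per kb was Mta3 (92.5), Hdac1 (63.9), Mbd3 (59.5), Mta2 (40.3), Chd4 (26.9), Gatad2a (25.5), Hdac2 (15.5), Rbbp4 (3.02), Hdac3 (2.04) and Mta1 (0.612), and here too each gene overlapped its neighbours. Mta2 had thus moved up past Hdac2, Gatad2a and Chd4. The cDNA amplification favours the 3′ end of transcripts, so a level per kb understates long transcripts relative to short ones.

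**Figure D1:**
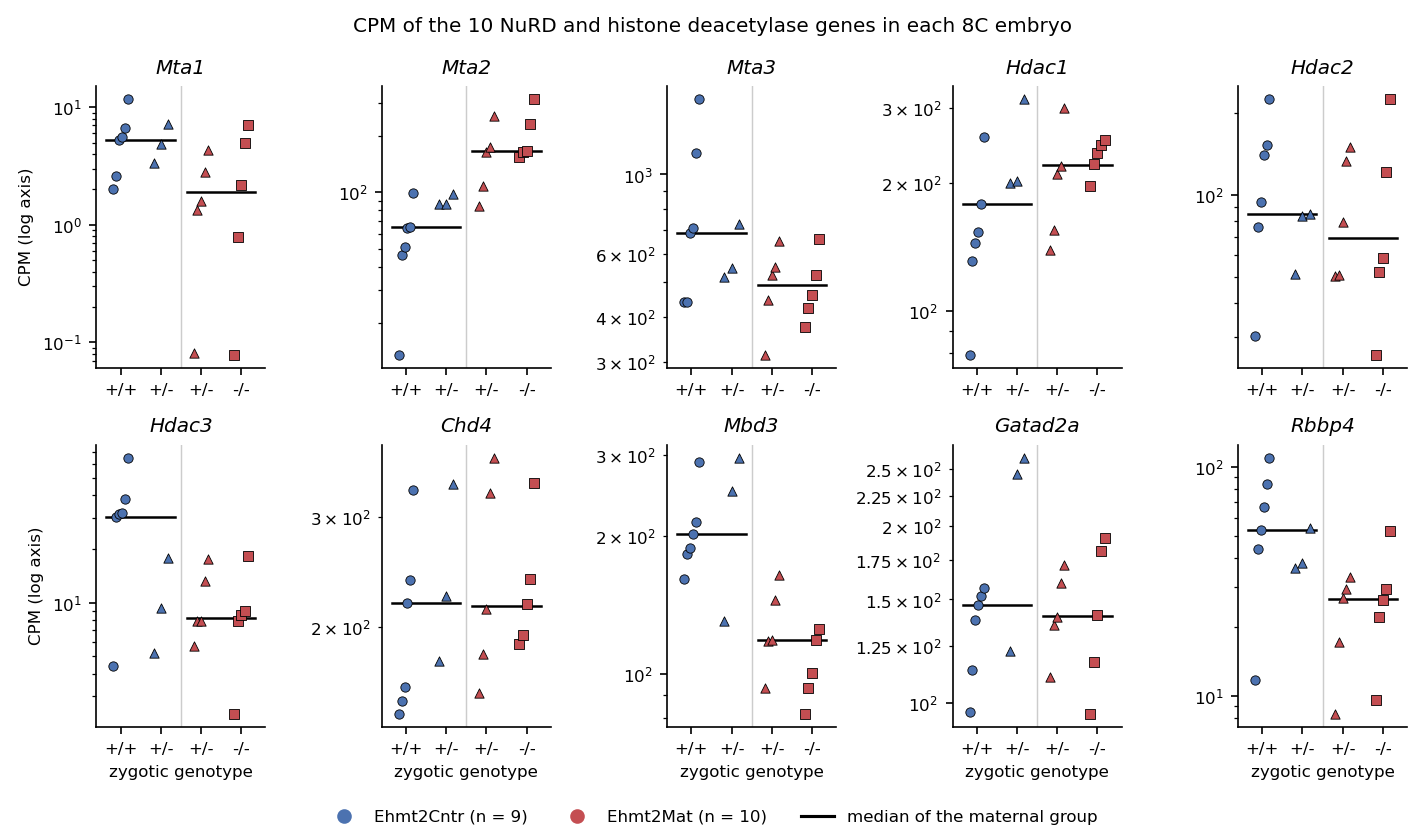
CPM of each gene (log axis, 1 panel per gene) in every embryo, by zygotic genotype, with Ehmt2Cntr in blue (n = 9), Ehmt2Mat in red (n = 10) and a bar at the median of each maternal group. Mta2 is higher in 9 of 10 Ehmt2Mat embryos than in any control, Mbd3 is lower in 8 of 10 than in any control, and for Hdac3 the low controls include all 3 of genotype +/-.

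In the comparison of all Ehmt2Mat with all Ehmt2Cntr embryos, 514 of 11754 tested genes were called higher (4.37%) and 585 lower (4.98%) at an adjusted p under 0.05, and the median log2 fold change of all genes was −0.04. Among the 10 genes, 1 lay past that threshold with a higher level (Mta2) and 2 with a lower level (Mbd3 and Rbbp4), against 9.35% of all tested genes called in either direction. The genes were picked with this comparison in view, so the threshold is no test of them and nothing is read from that count. Their median log2 fold change was −0.38, with 3 values above 0 and 7 below. Hdac1, Hdac2, Chd4 and Gatad2a had log2 fold changes between −0.14 and 0.24. Those of Mta2 (1.42), Hdac3 (−1.40), Rbbp4 (−1.12), Mta1 (−1.11), Mbd3 (−0.88) and Mta3 (−0.62) were larger in size, and the 3 MTA genes did not share a direction.

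Mta2 (chr19:8941875-8952303, plus strand, GRCm38), which encodes a scaffold subunit that binds the deacetylases, had the largest log2 fold change in size of the 10 genes. In controls it had 13.5 CPM at the lowest, 65.2 CPM at the median and 99.5 CPM at the highest. In Ehmt2Mat embryos the lowest, median and highest levels were 84.3, 165 and 314.4 CPM. All but Ehmt2Mat 6 (84.3 CPM) lay above every control, and 5 controls lay below every Ehmt2Mat embryo. The log2 fold change was 1.42 ± 0.29 (2.67-fold), and it was 1.28 without Ehmt2Cntr 7, the control at 13.5 CPM. Among the embryos of zygotic genotype +/-, the levels were 86.7, 86.8 and 98.2 CPM in the 3 controls and 84.3 to 254.8 CPM (median 163.8) in the 5 Ehmt2Mat embryos. The log2 fold change among them was 0.77 ± 0.38, with a 95% interval from −0.04 to 1.59. These embryos are part of those Mta2 was chosen on, so the interval is no test. Among the +/- embryos the groups overlapped only through Ehmt2Mat 6.

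Mta3 (chr17:83706163-83821516, plus strand), the scaffold paralog with the highest level of the family, went the other way. Its levels were 440.0 to 1625.6 CPM in controls (median 685.1) and 312.7 to 661.9 CPM in Ehmt2Mat (median 492.1). In Ehmt2Mat 3 embryos lay below every control and in Ehmt2Cntr 5 lay above every Ehmt2Mat embryo, so the groups overlapped. The log2 fold change was −0.62 ± 0.23, and it was −0.40 without Ehmt2Cntr 7, the embryo at 1625.6 CPM.

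Mta1 (chr12:113098278-113137206, plus strand), the founding member of the scaffold family, had the lowest median level of the 10 genes in both maternal groups. It had 2.03 to 11.8 CPM in controls (median 5.23) and 0.0775 to 7.05 CPM in Ehmt2Mat (median 1.9), and embryos Ehmt2Mat 5 and Ehmt2Mat 10 had 1 count each, under the floor of 3 counts. The log2 fold change was −1.11 ± 0.69.

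The balance between the MTA paralogs was compared within embryos, which removes the library size. Mta2 made up 1.06 to 21.9% of the summed MTA level per kb in controls (median 13.3%) and 16.4 to 43.7% in Ehmt2Mat (median 31.6%). Its share in 9 of 10 Ehmt2Mat embryos was above that of every control, and all 10 were above the control median. Mta3 held 74.7 to 98.7% in controls (median 85.7%) and 54.5 to 82.9% in Ehmt2Mat (median 67.7%), while Mta1 reached at most 3.42%. The ratio of Mta2 to Mta3 per kb was 0.0108 to 0.293 in controls (median 0.155) and 0.198 to 0.802 in Ehmt2Mat (median 0.47). The summed MTA level per kb overlapped widely, with 99.1 to 309.8 in controls (median 146.5) and 102.6 to 201.5 in Ehmt2Mat (median 127.5). Mta3 remained the major MTA transcript in every embryo, and the part of Mta2 was larger in Ehmt2Mat.

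**Figure D2:**
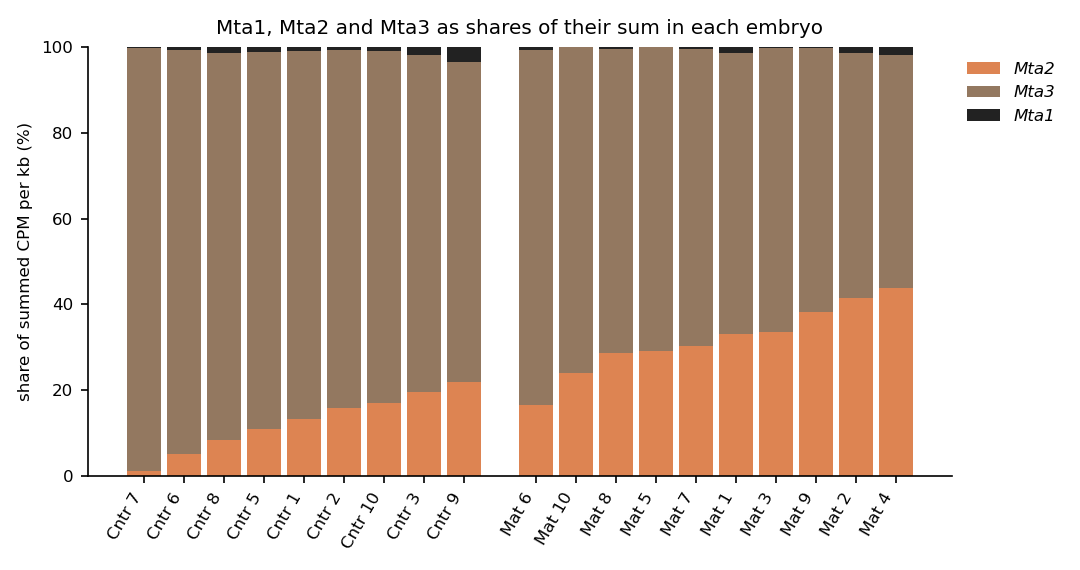
Stacked bars of the shares (%) of Mta2, Mta3 and Mta1 in the sum of their CPM per kb, 1 bar per embryo, with 9 Ehmt2Cntr (Cntr) and 10 Ehmt2Mat (Mat) embryos each sorted by the Mta2 share. The Mta2 share reaches 21.9% at most in controls and has a median of 31.6% in Ehmt2Mat.

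The sequences before the start of Mta2 and of Mbd3 are shown because Mta2 had a higher and Mbd3 a lower level in Ehmt2Mat, each with little overlap between the groups. They are taken from the RefSeq promoter table (GRCm38.p6), are 200 bases long, end at the base before the gene as the count files bound it, run 5′ to 3′ on the strand of the gene, and have each CG dinucleotide in capitals. The Mta2 window is chr19:8941675-8941874 (plus strand) and the Mbd3 window is chr10:80399551-80399750 (minus strand).
Mta2: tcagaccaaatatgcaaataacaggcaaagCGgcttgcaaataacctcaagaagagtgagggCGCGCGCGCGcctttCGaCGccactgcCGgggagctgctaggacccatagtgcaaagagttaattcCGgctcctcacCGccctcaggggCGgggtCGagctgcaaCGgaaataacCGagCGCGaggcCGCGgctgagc
Mbd3: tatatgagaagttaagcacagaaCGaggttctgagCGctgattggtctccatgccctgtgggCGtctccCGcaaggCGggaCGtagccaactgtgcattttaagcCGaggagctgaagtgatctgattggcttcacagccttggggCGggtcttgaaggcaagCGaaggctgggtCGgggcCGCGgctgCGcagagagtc
The Mta2 window holds 19 CG dinucleotides, a number that 14.4% of all 32851 RefSeq windows of this length reach. The Mbd3 window holds 13, which 27.1% of the windows reach. Among the 7 members with a usable entry the number ran from 12 (Chd4) to 35 (Mta1), against a median of 5 over all windows. The GC box letters GGGCGG, searched on both strands, occurred in 7 of these 7 windows and in 31.0% of all windows. A match of these letters is a description of the sequence and not a measured binding site.

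Hdac1 (chr4:129516104-129542713, minus strand) and Hdac2 (chr10:36974544-37001889, plus strand) encode the catalytic deacetylases of NuRD. Hdac1 had 78.9 to 314.4 CPM in controls (median 178.5) and 139.5 to 299.6 CPM in Ehmt2Mat (median 220.3). Hdac2 had 30.2 to 225.5 CPM in controls (median 85) and 25.7 to 225.0 CPM in Ehmt2Mat (median 69.1). For both genes the groups overlapped over most of their range. The log2 fold changes were 0.24 ± 0.21 for Hdac1 and −0.14 ± 0.37 for Hdac2, smaller than the spread between embryos, whose SD of log2(CPM + 1) was 0.58 and 0.33 for Hdac1 and 0.85 and 0.93 for Hdac2 in controls and Ehmt2Mat. The Hdac1 count is uncertain, because 35.5% of the 50-base windows of its transcripts also occur in other genes. Among these is Gm10093, a gene named here after its values were seen, which had medians of 133.9 CPM in controls and 209.2 CPM in Ehmt2Mat. Summing the counts of both gave a log2 fold change of 0.42. Multi-mapping reads were kept, so a read that maps to both genes can enter this sum more than once. The sum is therefore no corrected level of Hdac1.

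Hdac3 (chr18:37935844-37954988, minus strand), a class I deacetylase that works mainly in the NCoR and SMRT complexes, had its highest levels in +/+ controls. Over all embryos it had 4.43 to 65.0 CPM in controls (median 30.1) and 2.37 to 18.3 CPM in Ehmt2Mat (median 8.23), a log2 fold change of −1.40 ± 0.46. Of the 9 controls, 5 lay above every Ehmt2Mat embryo, and all 5 were +/+. The 3 controls of genotype +/- had 5.21, 9.35 and 17.7 CPM, and the 5 Ehmt2Mat embryos of genotype +/- had 5.70 to 17.5 CPM, nearly the same span. Among these 8 embryos the log2 fold change was −0.06 ± 0.76, and its 95% interval ran from −1.71 to 1.58. They are part of the embryos Hdac3 was chosen on, so here too the interval is no test. The sixth +/+ control, Ehmt2Cntr 5, had 4.43 CPM. Leaving out 1 embryo at a time, the log2 fold change of Hdac3 over all embryos ran from −1.54 to −1.1, with −1.1 reached without Ehmt2Cntr 7, the control at 65.0 CPM.

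As shares of the 3 class I genes per kb, Hdac1 took a median of 72.8% in controls and 74.8% in Ehmt2Mat, Hdac2 24.0% and 21.4%, and Hdac3 8.54% and 2.66%. The sum of the 3 genes was 52.3 to 111.3 CPM per kb in controls and 53.8 to 120.6 CPM per kb in Ehmt2Mat, so the total deacetylase level per kb overlapped across nearly its whole range.

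Chd4 (chr6:125095981-125130591, plus strand), the remodelling helicase of NuRD, had closely similar levels in the maternal groups. It had 145.3 to 339.5 CPM in controls (median 218.6) and 157.4 to 373.4 CPM in Ehmt2Mat (median 216.1), with a log2 fold change of 0.14 ± 0.21. Gatad2a (chr8:69907069-69996379, minus strand), which links the deacetylase core to the remodeller, had 96.6 to 261.4 CPM in controls (median 147.0) and 95.7 to 190.5 CPM in Ehmt2Mat (median 140.4). Its log2 fold change was −0.14 ± 0.19, and −0.57 ± 0.32 among the +/- embryos, where controls Ehmt2Cntr 3 and 10 had 261.4 and 245.6 CPM. The ranges of the maternal groups overlapped for both genes.

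Mbd3 (chr10:80392539-80399550, minus strand), the methyl-CpG-binding domain subunit that takes the place of MBD2 in one form of the complex, was lower in Ehmt2Mat. Controls had 130.3 CPM at the lowest, 202.3 CPM at the median and 296.3 CPM at the highest, against 81.5, 118.3 and 164.3 CPM in Ehmt2Mat. Of the 10 Ehmt2Mat embryos, 8 lay below every control, and 7 of 9 controls lay above every Ehmt2Mat embryo. The overlap came from Ehmt2Mat 6 and 10 (145.0 and 164.3 CPM) and from Ehmt2Cntr 8 and 10 (160.8 and 130.3 CPM). The log2 fold change was −0.88 ± 0.18, or 1.84-fold lower, and stayed between −0.95 and −0.81 when any 1 embryo was left out. Among the +/- embryos it was −0.83 ± 0.33, with a 95% interval from −1.54 to −0.13 over 5 and 3 embryos. These embryos are part of those the gene was chosen on, so the interval is no test. Mbd3 made up a median of 97.4% of the summed Mbd2 and Mbd3 level per kb in controls and 97.5% in Ehmt2Mat, so the pair as a whole had 68.1 to 153.1 CPM per kb in controls and 42.1 to 88.0 CPM per kb in Ehmt2Mat.

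Rbbp4 (chr4:129307100-129335370, minus strand), a histone-binding WD40 protein shared by NuRD, SIN3 and other chromatin complexes, was also lower in Ehmt2Mat. It had 11.7 to 109.9 CPM in controls (median 53.0) and 8.29 to 52.6 CPM in Ehmt2Mat (median 26.4), and all 10 Ehmt2Mat embryos were under the control median. The groups overlapped through Ehmt2Cntr 2 (11.7 CPM) and Ehmt2Mat 1 (52.6 CPM). The log2 fold change was −1.12 ± 0.35 and lay between −1.30 and −0.93 with 1 embryo left out. It was past the threshold, which is no test here, in 4 of these 19 fits. Of the exon bases of Rbbp4, 18% overlap the genes Gm26722 and Sync on the other strand, and the counting did not use strand, so reads of Rbbp4 and of these genes cannot be told apart.

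**Figure D3:**
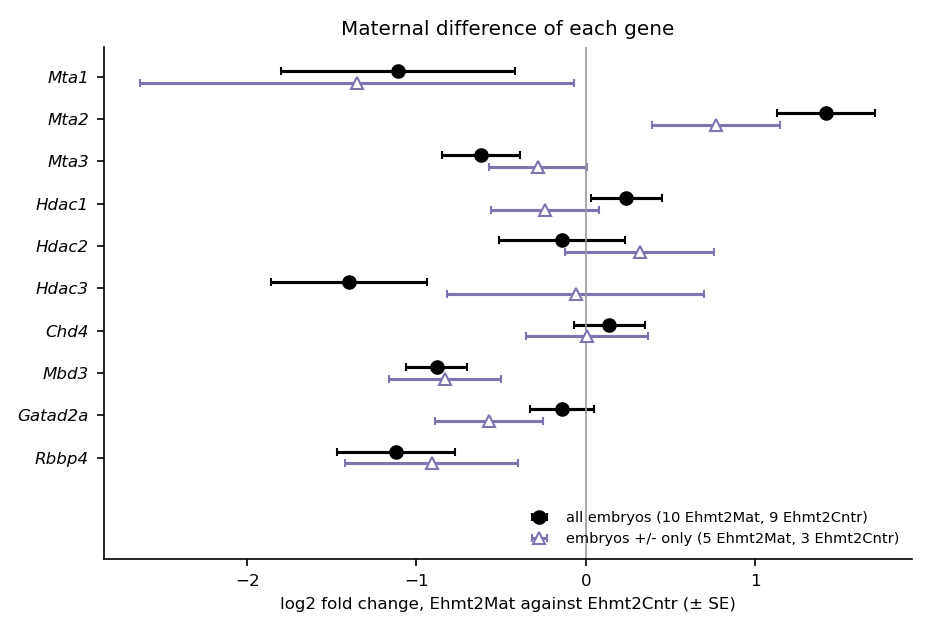
log2 fold change of Ehmt2Mat against Ehmt2Cntr with its SE for each gene, over all embryos (black circles, n = 10 and 9) and over embryos of zygotic genotype +/- (open triangles, n = 5 and 3). Mbd3 has nearly the same value in both (−0.88 and −0.83), and Hdac3 moves from −1.40 to −0.06.

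Among the paralogs of members, no call was made. Rbbp7, the paralog of Rbbp4, was by far the larger of the pair, with a median share of 96.2% of their summed level per kb in controls and 97.8% in Ehmt2Mat. It had 310.6 CPM at the median in controls and 296.5 CPM in Ehmt2Mat, with a log2 fold change of −0.28 ± 0.23 (edgeR, adjusted p = 0.52). Of its 50-base windows, 11.2% also occur in other genes. Mbd2 had medians of 8.23 and 4.19 CPM and a log2 fold change of −0.76 ± 0.49 (adjusted p = 0.372). Gatad2b had medians of 106.9 and 105.5 CPM and a log2 fold change of −0.12 ± 0.24 (adjusted p = 0.833). Gatad2a made up a median of 84.7% of the pair per kb in controls and 82.4% in Ehmt2Mat. That share depends on the division by exon length, with 17326 bases in Gatad2b and 5502 in Gatad2a. Undivided, the medians of Gatad2a were 147.0 and 140.4 CPM. Rbbp4 (8744 bases) is likewise longer than Rbbp7 (2909 bases). With the 3′ bias, a level per kb understates the longer gene of each pair. Chd5 and Hdac8 did not pass the filter on low counts, with medians of at most 0.121 CPM in either group.

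Chd3, the alternative remodeller of NuRD, had the widest difference of these paralogs at a low level. It had at most 0.783 CPM in 8 of 9 controls and 11.5 CPM in Ehmt2Cntr 10, and 2.84 to 21.1 CPM in Ehmt2Mat (median 5.37). The log2 fold change was 2.28 ± 1.09 and did not pass the test (adjusted p = 0.207). Without Ehmt2Cntr 10, the 1 control with a high level, it was 4.79 ± 1.05 (edgeR, adjusted p = 0.00513). Chd3 had 40 counts or more in every Ehmt2Mat embryo and as few as 0 in controls, so Ehmt2Mat carried it past the filter. The fits of Chd3 are therefore a description, and no call is read from them. Leaving out any other single embryo gave adjusted p-values from 0.205 to 0.308. Its level stayed far under that of Chd4, with medians of 0.636 and 26.9 CPM per kb in Ehmt2Mat.

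The other subunits and partners of NuRD were read from a list of 14 genes, of which 12 were tested, 0 were higher and 2 were lower, against 4.37% of all tested genes called higher and 4.98% lower. This list and those that follow were set with earlier results of these data known, so their counts are descriptions. Sall4, a zinc finger factor of pluripotent cells that recruits NuRD, had 439.2 to 1402.6 CPM in controls and 250.6 to 385.2 CPM in Ehmt2Mat, without overlap (log2 fold change −1.07 ± 0.20, edgeR, adjusted p = 0.00158). Pwwp2a, a nucleosome-binding protein that associates with the MTA and HDAC core, had a median of 77.0 CPM in controls and 45.5 CPM in Ehmt2Mat (log2 fold change −0.75 ± 0.20, adjusted p = 0.0209), and all 10 Ehmt2Mat embryos were under the control median.

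Genes of the complexes that share HDAC1, HDAC2, HDAC3 or RBBP4 with NuRD were compared in the same fit. With them were read 15 other deacetylase and sirtuin genes and 10 histone acetyltransferase genes. Together with the 14 other NuRD genes above, these lists hold 73 genes. Of these, 65 were tested, 2 were called higher and 8 lower (15.4%), against 9.35% of all tested genes. Their median log2 fold change was −0.19, against −0.04 for all genes. Of 11 genes of the CoREST complex, which pairs HDAC1 and HDAC2 with the demethylase KDM1A, 4 were lower, against 4.98% of all tested genes, and 0 higher. These were the corepressor scaffolds Rcor1 (log2 fold change −1.06 ± 0.28, adjusted p = 0.0163) and Rcor2 (−1.24 ± 0.32, adjusted p = 0.0162), the DNA-binding repressor Rest (−1.08 ± 0.23, adjusted p = 0.00443) and the HMG-domain subunit Hmg20b (−0.86 ± 0.26, adjusted p = 0.0357). Rest had 207.4 to 498.1 CPM in controls and 77.9 to 324.1 CPM in Ehmt2Mat, and 7 of 10 Ehmt2Mat embryos lay below every control. For Rcor1, Rcor2 and Rest the call held with any 1 embryo left out, whereas that of Hmg20b was lost without Ehmt2Cntr 1, 6 or 7 or Ehmt2Mat 1, 2, 3, 5, 8 or 9, at values from −0.95 to −0.70 over all 19 fits.

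Of the 14 SIN3 genes, 1 was higher and 0 lower (7.14% called), against 9.35% of all tested genes called in either direction. That gene was Brms1, a subunit that binds the deacetylase module, with a median of 53.3 CPM in controls and 129.3 CPM in Ehmt2Mat (log2 fold change 0.99 ± 0.23, adjusted p = 0.00816). Of the 5 NCoR and SMRT genes, Tbl1xr1, a WD40 subunit of the HDAC3 complex, was lower (−1.80 ± 0.51, adjusted p = 0.0265), a call lost without Ehmt2Cntr 6 (−1.66) or 7 (−1.59). Of the 4 MiDAC genes, which form a complex with HDAC1 and HDAC2 active in mitosis, Dnttip1 was lower (−1.04 ± 0.33, adjusted p = 0.0448), and its call was kept in 8 of 19 fits with 1 embryo left out (without Ehmt2Cntr 6, 7, 8, 9 or 10 or Ehmt2Mat 5, 6 or 10), at values from −1.14 to −0.87. Of 10 histone acetyltransferase genes, Kat5 was higher (0.97 ± 0.31, adjusted p = 0.0452), and its call was kept in 4 of 19 fits (without Ehmt2Cntr 1 or 5 or Ehmt2Mat 8 or 10), at values from 0.87 to 1.1. Of the exon bases of Kat5, 21.1% overlap another gene. In the NCoR and SMRT, MiDAC and acetyltransferase lists the count was 1 gene each. An excess over the 9.35% of all tested genes was not tested for these lists. Of 15 other deacetylase and sirtuin genes, 9 were tested and 0 were called by edgeR or by DESeq2. In the edgeR fit 2 of these 9 had an unadjusted p under 0.05, against 23.3% of all tested genes.

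**Figure D4:**
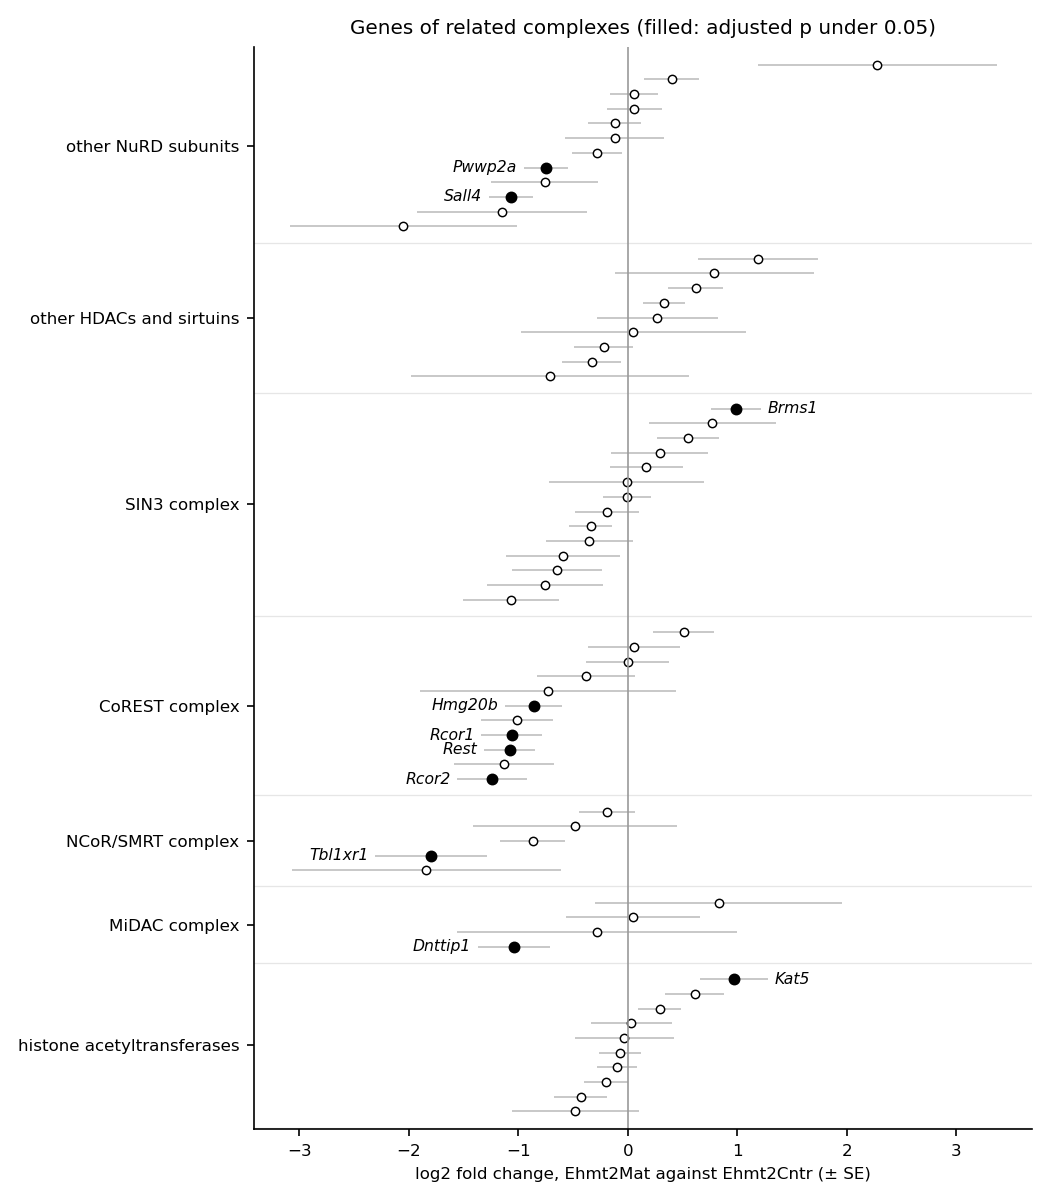
log2 fold change of Ehmt2Mat against Ehmt2Cntr with its SE for the 65 tested genes of 7 lists, 1 point per gene, filled and named where the adjusted p of edgeR was under 0.05. The 8 genes called lower include 4 of the CoREST complex, and the 2 called higher are Brms1 and Kat5.

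The zygotic genotype was compared within each maternal group, a contrast that did not enter the choice of the genes. Within Ehmt2Mat, -/- against +/- embryos (n = 5 each), 0 of 12195 tested genes (0%) were called by edgeR, 270 had an unadjusted p under 0.05, and DESeq2 called 3. Of the 10 genes, 0 were called by either tool and 0 had an unadjusted p under 0.05. The largest differences were those of Mta1 (log2 fold change 0.57 ± 1.14, 95% interval −1.86 to 3.01, adjusted p = 1.0) and Mta2 (0.40 ± 0.31, 95% interval −0.26 to 1.06, adjusted p = 1.0). Mta2 had 154.6 to 314.4 CPM in -/- and 84.3 to 254.8 CPM in +/- embryos, and the genotypes overlapped. The interval of Mbd3 ran from −0.81 to 0.20 and that of Chd4 from −0.68 to 0.51, and values within these limits are not excluded.

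Within Ehmt2Cntr, +/- (n = 3) against +/+ (n = 6), 0 of 12646 genes (0%) were called by edgeR, 572 had an unadjusted p under 0.05, and DESeq2 called 3. Of the 10 genes, 0 were called by either tool and 2 had an unadjusted p under 0.05. Hdac3 had 5.21 to 17.7 CPM in +/- and 4.43 to 65.0 CPM in +/+ embryos, with a log2 fold change of −1.62 ± 0.72 (95% interval −3.17 to −0.07, edgeR, adjusted p = 1.0). Gatad2a, at 122.7 to 261.4 CPM in +/- and 96.6 to 156.8 CPM in +/+ embryos, had a log2 fold change of 0.67 ± 0.30 (95% interval 0.03 to 1.31, adjusted p = 1.0). Those of Mta2 and Hdac2 were 0.69 ± 0.46 and −0.69 ± 0.50, with intervals that include 0.

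Taken over both maternal groups with the maternal difference as a term, embryos with fewer zygotic copies against those with more gave 0 calls among 15224 genes (0%) by edgeR and by DESeq2, with 593 at an unadjusted p under 0.05, of which 0 were among the 10 genes. The difference of the zygotic effect between the maternal groups gave 0 calls among 15224 genes (0%) by edgeR, 1236 at an unadjusted p under 0.05 and 177 calls by DESeq2, again with 0 of the 10 genes by any of these measures. For Hdac3 this difference was 1.49 ± 0.91 (95% interval −0.40 to 3.38, adjusted p = 0.75), so the separation of +/+ from +/- controls was not shown to be particular to controls.

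**Figure D5:**
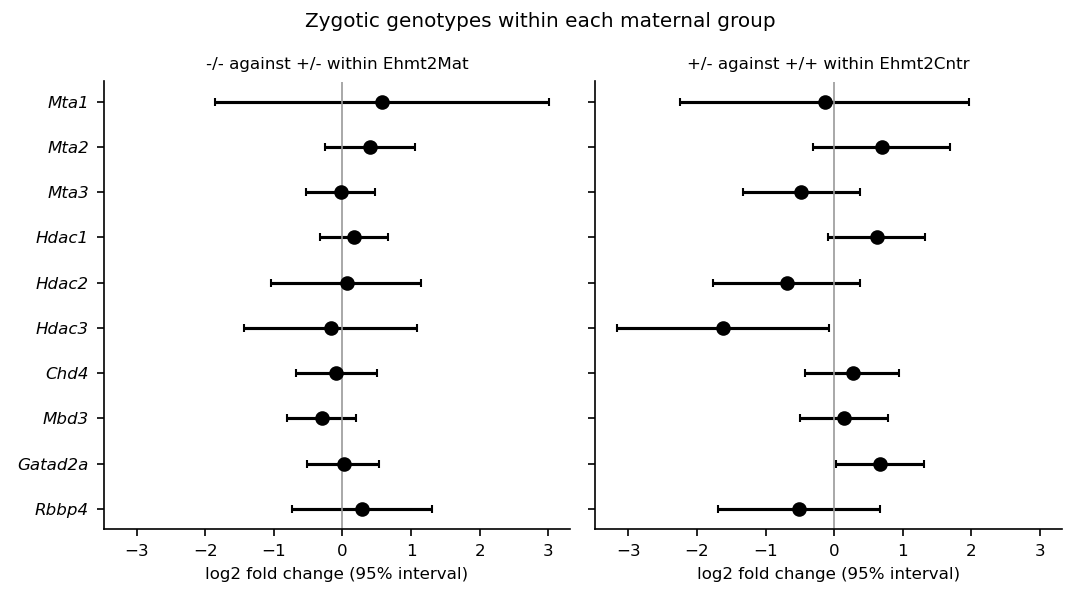
log2 fold change with its 95% interval for each gene between zygotic genotypes, for -/- against +/- within Ehmt2Mat on the left (n = 5 and 5) and +/- against +/+ within Ehmt2Cntr on the right (n = 3 and 6). Every interval on the left includes 0, and on the right those of Hdac3 (−3.17 to −0.07) and Gatad2a (0.03 to 1.31) do not, though neither passed after adjustment.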

How the data were processed

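RNA of single 8C embryos was amplified as cDNA with a bias towards the 3′ end and sequenced as single-end 50 bp reads. Per the file headers, the authors counted reads on exons of the Ensembl release 82 genes of GRCm38 with featureCounts 1.5.0, requiring 10 overlapping bases. A read on several genes counted for each, multi-mapping reads were kept and strand was not used. The deposited values are raw counts without normalization. The labels name TopHat2 as aligner. Counts of control embryo 4 were not analysed here.

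The 10 genes and all gene lists were chosen with earlier results of these data known. The genes named are the 10, Ehmt2, 6 paralogs, and of each other list the genes past the threshold. Counts were analysed with edgeR 4.0.16 in R 4.3.3 (filterByExpr, TMM, quasi-likelihood test, Benjamini-Hochberg adjustment over all tested genes, threshold 0.05), with 10 Ehmt2Mat against 9 Ehmt2Cntr embryos and no covariate, and with separate fits for zygotic genotypes. The script was tested on simulated data. No embryos were duplicates (highest correlation of log2 CPM 0.939). Levels per kb use exon length. Alternatives were DESeq2 1.42.0, other normalizations and filters, the embryo number as a block, +/- embryos only and each embryo left out. Added after seeing the data was the sum of Hdac1 and Gm10093. Promoter sequences come from RefSeq, and none was used for Mta3, Hdac1 or Hdac3.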

Additional observations from a re-analysis of the deposited data

Results flagged for a closer look

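In each maternal group, the lowest and the highest embryo of 21 genes (the 10 members, Ehmt2 and the 10 other genes called in the maternal comparison) were tested for lying apart from the rest by Dixon's ratio on log2(CPM + 1). Of 42 groups, 4 held such an embryo, and chance gives about 1 in 20. Mta2 was lowest in Ehmt2Cntr 7, at 13.5 CPM against 46.5 CPM in the next control. Rbbp4 was lowest in Ehmt2Cntr 2, at 11.7 CPM against 36.3 CPM in the next. Pwwp2a was lowest in Ehmt2Cntr 1, at 37.7 CPM against 62.3 CPM. Kat5 was lowest in Ehmt2Mat 10, at 16.2 CPM against 39.6 CPM.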

How the results depend on the processing

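The maternal comparison of all genes gave 1099 calls, against 1775 with DESeq2, 693 with the replicate block, 667 when the log2 fold change also had to reach 1 in size, and 1 with only the +/- embryos (5 against 3). With 1 embryo left out it gave 884 to 1262. Of the 10 genes, for which the threshold is no test, 3 lay past it, against 5 with DESeq2 and 5 when each embryo needed 10 counts or more (both adding Mta3 and Hdac3), 0 among the +/- embryos, and 2 to 4 with 1 embryo left out. The 10 genes, where fitted, kept their direction in the fits of all embryos, while Hdac1 and Hdac2 changed sign among the +/- embryos (−0.24 and 0.32) and Hdac2 without Ehmt2Cntr 7 (0.08). Of the 65 other genes tested, 10 were called, against 0 among the +/- embryos, 6 with that size limit, and 7 to 11 with 1 embryo left out. The zygotic contrasts, with 0 calls by edgeR, gave 3 within Ehmt2Mat, 3 within Ehmt2Cntr and 177 for their difference by DESeq2, and without Ehmt2Cntr 10 edgeR gave 1 within Ehmt2Cntr. Leaving out the filter moved the median log2 fold change of all genes from −0.04 to 0.13. The cause of these changes was not tested, and the +/- fit holds fewer embryos.

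The embryo number gave 9 pairs across the maternal groups, whose deviations correlated between −0.11 and 0.117, with 2 pairs over 0.1. These low values gave no sign of pairing by number. They cannot exclude it, because pairs of unlike number were not compared and the labels name no litters. With the replicate block, 2 of the 10 genes lay past the threshold, Mta2 (log2 fold change 1.43) and Mbd3 (−0.82). Mta1, at −2.0, did not. Of the other genes 8 were called by edgeR, Chd3 among them (5.48 ± 1.31, adjusted p = 0.0259, against 2.28 without the block). For Chd3, which passed the filter through its Ehmt2Mat counts, this too is a description. For the zygotic contrasts, no paired analysis was possible because the embryos of different zygotic genotype within a maternal group share no number. Mta1 and Hdac3 rest on few counts (at least 1 and 36 in an Ehmt2Mat embryo), which limits their precision.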
